A study of Mus musculus with 6 samples.

Results

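The protein-coding genes of the cytosolic ribosomal proteins were examined in DC2.4, an immortalised mouse dendritic cell line. Members were chosen by name from the deposited count table: protein-coding genes whose symbol is Rpl or Rps followed by a number, together with Rplp0, Rplp1, Rplp2 and Rpsa, leaving out the Rps6k kinases and names that contain -ps. The rule found 86 of 54532 genes, with 31 proteins of the small (40S) subunit, 43 of the large (60S) subunit, the 3 proteins of the ribosomal stalk, 8 paralogs or retrogenes and Rps19bp1, which binds Rps19 and is not itself a ribosomal protein. Cells labelled as overexpressing Vdbp from a vector (3 libraries) were compared with cells that carry the empty vector (3 libraries), with pTT5 as the vector on the labels of both groups. Vdbp, encoded in the mouse by Gc, is the serum protein that binds vitamin D. Both kinds of cells were split 48 h after they were transfected and were grown under selection from the following day. Since no label names separate cultures for the libraries within a group, a p-value measures only the spread between these samples.

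Each ribosome holds ribosomal RNA and 1 copy of nearly every ribosomal protein, and only the acidic stalk proteins are present in several copies. The messenger RNAs of ribosomal proteins are among the most abundant in growing mammalian cells. They begin with a run of pyrimidines, the 5′ terminal oligopyrimidine tract, through which the kinase mTOR controls their translation. Mammalian genomes also hold many processed pseudogenes of these genes, copies made from spliced messenger RNA, so that short reads of a ribosomal protein messenger RNA often match several places. Dendritic cells are known to raise protein synthesis when they mature.

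The sequences that bear on these measurements are the starts of the genes, which were searched for a pyrimidine run. Reading frames of a gene, its retrogene and a paralog are also printed. Of the 86 members, 66 had a start window in RefSeq (GRCm38.p6), and 44 of these (66.7%) held a C followed by at least 4 pyrimidines on the sense strand within 10 bases before to 20 bases after the annotated start. The same search found such a run in 40.05% of 17491 protein-coding genes. A run of 8 or more bases was found in 24 members (36.4%) and in 10.4% of the protein-coding genes. Where a gene had several annotated starts, the one with the longest run was used for members and for all genes alike. A match describes the letters only. The searched window reaches 10 bases before the annotated start, and a run there lies outside the annotated transcript. That of Rpl10a lies wholly before the start, and such runs were counted among the matches. The 30 bases before and the 20 bases from the start are printed for Rpl27a, whose run was 20 bases long, for Rpl7a, Rps18, Rpl10a and Rpl22l1, which are described below, and for Rps16, in which no run was found in this window. Capitals mark the part of the run inside the searched window, and in Rpl7a pyrimidines continue before its edge. In Rps16 a C followed by 4 pyrimidines begins just before that edge, so its lack of a run depends on the window.
Rpl27a (chr7:109519165-109519214, plus strand): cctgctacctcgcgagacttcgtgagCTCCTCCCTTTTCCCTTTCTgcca
Rpl7a (chr2:26910777-26910826, plus strand): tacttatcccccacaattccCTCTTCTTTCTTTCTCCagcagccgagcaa
Rps18 (chr17:33955646-33955695, minus strand): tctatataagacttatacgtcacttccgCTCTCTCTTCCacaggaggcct
Rpl10a (chr17:28328441-28328490, plus strand): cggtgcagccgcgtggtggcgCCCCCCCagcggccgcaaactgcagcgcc
Rpl22l1 (chr3:28805478-28805527, plus strand): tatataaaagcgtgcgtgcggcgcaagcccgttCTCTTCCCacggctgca
Rps16 (chr7:28350659-28350708, plus strand): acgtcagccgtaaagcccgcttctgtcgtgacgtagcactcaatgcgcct
The reading frames of Rps27 (chr3:90212522-90213651, minus strand) and of its retrogene Rps27rt (chr9:114982366-114982739, minus strand) come from the transcripts of GENCODE M21 (GRCm38). Both are 255 bases long and have 0 differences, so that no read from within the frame can tell them apart. The paralog Rps27l (chr9:66946086-66949516, plus strand) differs from them at 61 bases (76.1% identity), and capitals mark those bases in both printed frames.
Rps27 and Rps27rt: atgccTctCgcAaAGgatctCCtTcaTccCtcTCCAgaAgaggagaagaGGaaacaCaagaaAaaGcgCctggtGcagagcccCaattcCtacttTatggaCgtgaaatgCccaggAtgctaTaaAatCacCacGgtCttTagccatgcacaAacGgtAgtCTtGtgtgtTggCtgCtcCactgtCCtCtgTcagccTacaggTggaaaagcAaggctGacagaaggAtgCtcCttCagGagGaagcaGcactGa
Rps27l: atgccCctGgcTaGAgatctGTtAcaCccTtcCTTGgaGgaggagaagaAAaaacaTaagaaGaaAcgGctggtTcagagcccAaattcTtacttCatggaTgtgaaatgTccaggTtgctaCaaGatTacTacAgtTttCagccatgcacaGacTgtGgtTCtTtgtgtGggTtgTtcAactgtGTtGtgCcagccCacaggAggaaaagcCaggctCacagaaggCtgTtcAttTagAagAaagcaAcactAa

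The libraries labelled Vdbp held between 15563800 and 16529104 counts, and the empty-vector libraries between 16376659 and 16710975. Gc had 0 counts in all 3 libraries labelled Vdbp and in all 3 empty-vector libraries, where a count of 0 allows up to 0.180 to 0.193 CPM (counts scaled to a common library size), so that the counts do not show the overexpression named on the labels. Of the macrophage markers, Csf1r (554 to 699.7 CPM), Adgre1 (556 to 689.7 CPM), Lyz2 (1520.3 to 2095 CPM) and Cd68 (1032 to 1363 CPM) were high, and Mertk had 11 counts over all 6 libraries. Of the markers of dendritic and antigen-presenting cells, Cd74 lay at 164 to 226 CPM, Cd86 at 63.4 to 93.7 CPM, Cd40 at 55.2 to 68.7 CPM, Irf8 at 48.6 to 62.3 CPM, Itgax at 45.9 to 56.4 CPM, Cd80 at 12.95 to 20.95 CPM and Zbtb46 at 1.87 to 3.19 CPM. Flt3, Batf3, Ccr7, Ciita, H2-Aa and H2-Ab1 had 1 to 22 counts each over all 6 libraries. Libraries differed in how level followed GC content. Over 12834 genes, Spearman's rho between GC content and a library's deviation from the mean of all libraries was 0.73, −0.029 and −0.40 in libraries 1, 2 and 3 labelled Vdbp and −0.073, −0.62 and 0.067 in the empty-vector libraries.

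No ribosomal protein gene passed the test between the groups, and the 84 members that could be tested lay within a narrow range of log2 fold changes, from −0.35 for Rpl21 to 0.63 for Rpl22l1. The members leaned to the side of the libraries labelled Vdbp: 53 of 84 had a fold change above 0, which was so for 48.7% of all 12844 genes tested. Their median log2 fold change was 0.099, against −0.0068 for all tested genes. Small-subunit members had a median of 0.057, large-subunit members 0.11, the 3 stalk proteins 0.19 and the 6 tested paralogs 0.0999. In these bulk libraries more cells with much of this RNA and more of it in every cell cannot be told apart. Levels were compared with edgeR's quasi-likelihood test with Benjamini-Hochberg adjustment over all tested genes, which called 0 of 84 members and 0 of 12844 genes at an adjusted p under 0.05 (0% of genes in each direction). DESeq2 and limma-voom also called 0 members. At an unadjusted p under 0.05 there were 12 members (14.3%), 11 higher and 1 lower, where 5.35% of all tested genes were found, 2.81% higher and 2.54% lower. That count moved with single libraries: it was 3 higher and 3 lower without Vdbp replicate 1, 1 higher and 0 lower without empty-vector replicate 2 and 5 higher and 0 lower without empty-vector replicate 1, against 19 higher and 2 lower without Vdbp replicate 3 and 20 higher and 4 lower without empty-vector replicate 3. The smallest adjusted p of a member was 0.781 in edgeR and 0.0795 in DESeq2.

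In 11 members (13.1% of 84) every library labelled Vdbp stood above every empty-vector library, and in 0 members did every one stand below. Groups did not overlap in 10.9% of all tested genes, 5.26% with Vdbp higher and 5.61% with Vdbp lower. Among them were Rpl6, Rpl7a, Rpl10a, Rpl13a, Rpl30 and Rplp1 of the large subunit and its stalk, and Rps18 and Rps20 of the small subunit. The 95% interval of the log2 fold change spanned 0 in 72 of 84 members, and it lay within 1 log2 unit of 0 in 80 of them. The lean rested in part on single libraries: the median log2 fold change of members was 0.055 without Vdbp replicate 1, 0.055 without empty-vector replicate 2 and 0.026 without both, when 45 of 84 members were above 0.

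**Figure D1:**
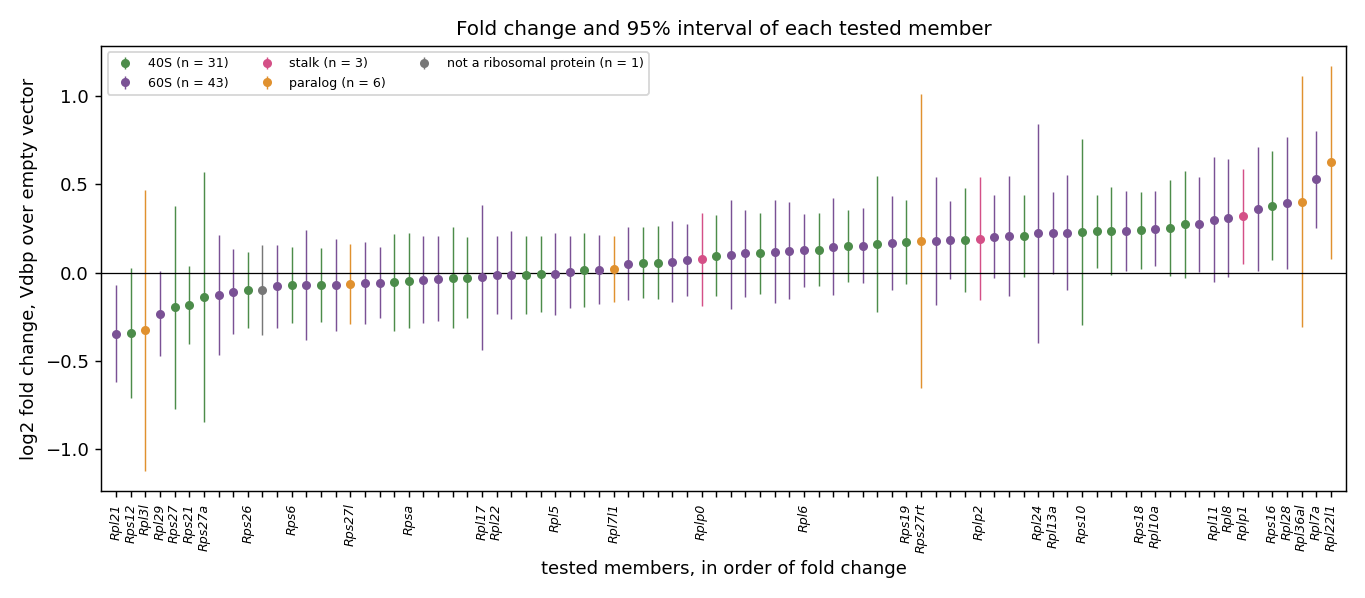
Log2 fold change of the 84 tested members (points; Vdbp over empty vector) with the 95% interval from edgeR (bars), in order of size and coloured by class, with the names of the members described in the text. Most intervals span 0, the values run from −0.35 to 0.63, and 53 of 84 points lie above 0.

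Summed over the 86 members, ribosomal protein genes took 5.75%, 5.62% and 5.31% of all counts in libraries 1, 2 and 3 labelled Vdbp, and 5.42%, 5.07% and 5.31% in the empty-vector libraries. The groups overlapped, since Vdbp replicate 3 lay below empty-vector replicates 1 and 3. The means were 5.56% ± 0.228 in libraries labelled Vdbp and 5.27% ± 0.181 in empty-vector libraries (SD, n = 3 each), a difference of 0.296 percentage points that came to 0.196 without empty-vector replicate 2. With paralogs counted in the subunit of their parent, members of the large subunit and stalk held 3.30% ± 0.194 of counts in libraries labelled Vdbp and 3.09% ± 0.129 in empty-vector libraries, and members of the small subunit held 2.26% ± 0.0338 in libraries labelled Vdbp and 2.17% ± 0.0822 in empty-vector libraries. Counted in the same way, the large over the small subunit had a ratio of 1.51, 1.48 and 1.39 in the libraries labelled Vdbp and 1.39, 1.39 and 1.495 in the empty-vector libraries, with overlap of the groups.

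Among large-subunit members, Rpl7a (chr2:26910764-26913318, plus strand), a 60S protein whose gene hosts small nucleolar RNAs, had the smallest p. It had 225, 214 and 276 CPM in libraries labelled Vdbp and 144, 189 and 162 CPM in empty-vector libraries. All libraries labelled Vdbp stood above all empty-vector libraries, and Vdbp replicate 3 was the highest. The log2 fold change was 0.53 ± 0.13 (SE; 95% interval 0.25 to 0.80; adjusted p = 0.781, edgeR). With its pseudogene rows added, the value was 0.47 for copies named after it and 0.50 for all pseudogene rows that share its sequence. Without a filter on low counts, edgeR gave Rpl7a an adjusted p of 0.000747 and Rpl28, a 60S protein, one of 0.0475. That setting called 2 of 85 members, and of all 24135 genes it called 42 higher and 47 lower. Rpl7a and Rpl28 were the only members called under any setting.

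Rpl10a (chr17:28328471-28331033, plus strand), a 60S protein that is present in only part of the ribosomes of mouse embryonic stem cells, had 823, 709.7 and 700.2 CPM in libraries labelled Vdbp and 644, 616 and 618 CPM in empty-vector libraries. The empty-vector libraries lay close together, below all of the others. On the log2 scale the difference was 0.25 ± 0.097 (SE; adjusted p = 0.781, edgeR). Rpl28 had 716, 601 and 516 CPM in libraries labelled Vdbp and 463, 346 and 585 CPM in empty-vector libraries, where replicate 3 was above the lowest library labelled Vdbp. By the level per length that the authors deposited, Rpl8, a 60S protein, was among the 5 highest members. It had 1992, 1611 and 1310.2 CPM in libraries labelled Vdbp and 1251, 1153 and 1560.4 CPM in empty-vector libraries. The groups overlapped in the same way.

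Among small-subunit members, Rps16 (chr7:28350652-28353155, plus strand), whose tail reaches the P-site transfer RNA, had 600.0, 526 and 453 CPM in libraries labelled Vdbp and 376, 344 and 494 CPM in empty-vector libraries. The groups overlapped, with empty-vector replicate 3 above Vdbp replicate 3. Its fold change was 0.38 ± 0.14 on the log2 scale (SE; adjusted p = 0.781, edgeR). Rps18 (chr17:33951999-33956001, minus strand), at the head of the 40S subunit, had 1061, 913 and 878 CPM in libraries labelled Vdbp and 838, 785 and 792 CPM in empty-vector libraries. These groups did not overlap, and the log2 fold change was 0.24 ± 0.10 (SE; adjusted p = 0.781, edgeR).

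The stalk of the large subunit binds the elongation factors. Rplp1 had 1607, 1406 and 1316 CPM in libraries labelled Vdbp and 1199, 974 and 1298 CPM in empty-vector libraries, so that the lowest library labelled Vdbp was just above the highest empty-vector library. Its log2 fold change was 0.32 ± 0.12 (SE; adjusted p = 0.781, edgeR). Its partner Rplp2 had 597, 454 and 348 CPM in libraries labelled Vdbp and 395, 385 and 444 CPM in empty-vector libraries, with Vdbp replicate 1 the highest and Vdbp replicate 3 the lowest of all 6. Rplp0, the base of the stalk and the member with the most counts, had 3907, 2899.7 and 3198 CPM in libraries labelled Vdbp and 3405, 3137 and 2959 CPM in empty-vector libraries. Here too Vdbp replicate 1 was the highest, and the groups overlapped. The log2 fold changes of 0.19 ± 0.16 for Rplp2 and 0.074 ± 0.12 for Rplp0 (SE) both turned below 0 without that library, to −0.021 and −0.052. Rpsa, a 40S protein also known as a laminin receptor, had 2499, 2029 and 2338 CPM in libraries labelled Vdbp and 2576, 2534 and 1981 CPM in empty-vector libraries, which overlapped, with a log2 fold change of −0.047 ± 0.12 (SE).

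**Figure D2:**
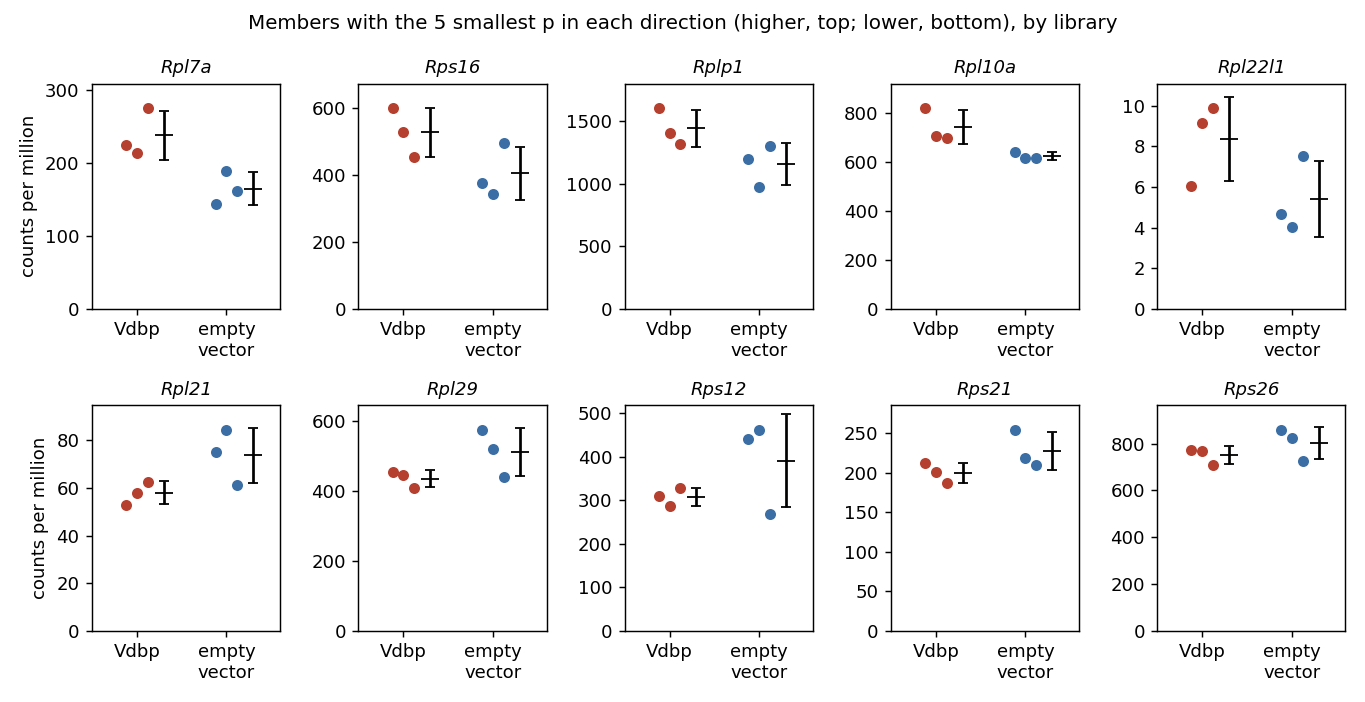
CPM in each library (points; Vdbp left, empty vector right) for the 5 members above 0 and the 5 below 0 with the smallest p, with the mean and SD of 3 libraries beside them. Rpl7a, Rplp1 and Rpl10a show no overlap between the groups, and the other 7 do.

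Of the members below 0, Rpl21 (chr5:146832890-146837032, plus strand), a 60S protein, had the smallest p. It had 53, 58.1 and 62.7 CPM in libraries labelled Vdbp and 75.1, 84.6 and 61.3 CPM in empty-vector libraries. Empty-vector replicate 3 lay within the range of the libraries labelled Vdbp. The log2 fold change was −0.35 ± 0.13 (SE; adjusted p = 0.781, edgeR), and it was 0.011 when its named pseudogene copies, which held 54.2% of the family's counts, were added. Rps12, a 40S protein, had 310.4, 286 and 328 CPM in libraries labelled Vdbp and 442, 463 and 268 CPM in empty-vector libraries, where replicate 3 was the lowest of all 6. Its log2 fold change of −0.34 ± 0.17 (SE; adjusted p = 0.781, edgeR) was −0.058 when summed with its copies, which held 41.4% of the counts. Rpl29, a 60S protein, had 452, 443 and 407 CPM in libraries labelled Vdbp and 574, 519.6 and 438 CPM in empty-vector libraries. Rps21, a 40S protein, had 213, 200.2 and 187 CPM in libraries labelled Vdbp and 254, 218 and 209.7 CPM in empty-vector libraries. Rps26, at the messenger RNA exit of the 40S subunit, had 775, 771 and 707 CPM in libraries labelled Vdbp and 861, 825 and 728 CPM in empty-vector libraries. In all 3 of these genes empty-vector replicate 3 was the lowest of its group and lay among the libraries labelled Vdbp, and the log2 fold changes were −0.23 ± 0.11, −0.19 ± 0.10 and −0.10 ± 0.098 (SE).

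The paralogs, which replace or accompany a ribosomal protein in some tissues, were mostly far below their parent genes. Rpl22l1 (chr3:28805436-28807424, plus strand), the paralog of the 60S protein Rpl22, had 6.04, 9.14 and 9.9 CPM in libraries labelled Vdbp and 4.67, 4.05 and 7.51 CPM in empty-vector libraries. Vdbp replicate 1 was below empty-vector replicate 3, and Vdbp replicates 2 and 3 were above all empty-vector libraries. The log2 fold change was 0.63 ± 0.25 (SE; adjusted p = 0.781, edgeR), the only one among the members past a 1.5-fold difference. Rpl22 itself had 334, 394 and 321 CPM in libraries labelled Vdbp and 335, 359 and 366 CPM in empty-vector libraries, with overlap and a log2 fold change of −0.014 ± 0.10 (SE). Rpl3l, the striated-muscle paralog of Rpl3, had 18, 20 and 14 counts in libraries labelled Vdbp and 13, 33 and 21 counts in empty-vector libraries, with a log2 fold change of −0.33 ± 0.37 (SE). Rpl10l and Rpl39l, paralogs of Rpl10 and Rpl39 known from the testis, were not tested: Rpl10l had 0 counts in all 6 libraries, and Rpl39l had 0, 3 and 0 counts in libraries labelled Vdbp and 0, 1 and 2 in empty-vector libraries. Rpl7l1, a protein of the nucleolus related to Rpl7, had 171, 178 and 180.0 CPM in libraries labelled Vdbp and 178, 176 and 167 CPM in empty-vector libraries, a narrow range in which the groups overlapped. The parents Rpl3, Rpl7, Rpl10, Rpl26, Rpl36a, Rpl39, Rps4x and Rps3a1 all overlapped between the groups.

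Several members have known roles outside the ribosome. Rpl5 and Rpl11 bind Mdm2 together with 5S ribosomal RNA when ribosome assembly is disturbed, which stabilises p53. Rpl11 had 752, 757 and 581 CPM in libraries labelled Vdbp and 536, 444 and 717 CPM in empty-vector libraries, with overlap and a log2 fold change of 0.30 ± 0.16 (SE; adjusted p = 0.781, edgeR). Rpl5 had 776, 987 and 912.3 CPM in libraries labelled Vdbp and 846, 929 and 911.9 CPM in empty-vector libraries, and here Vdbp replicate 1 was the lowest of all 6 and Vdbp replicate 2 the highest. Its log2 fold change was −0.0065 ± 0.11 (SE; 95% interval −0.24 to 0.23). Rps6, the substrate of the S6 kinases, had 952, 974 and 995 CPM in libraries labelled Vdbp and 1069, 1092 and 911 CPM in empty-vector libraries, which overlapped, with a log2 fold change of −0.073 ± 0.099 (SE). Rps19, which is mutated in Diamond-Blackfan anaemia, had 550.3, 532 and 453 CPM in libraries labelled Vdbp and 455, 407 and 500.0 CPM in empty-vector libraries, which overlapped, with a log2 fold change of 0.17 ± 0.11 (SE). Rpl13a, which in human monocytes leaves the ribosome to silence inflammatory messenger RNAs, had 39.3, 38.9 and 36 CPM in libraries labelled Vdbp and 34, 31.3 and 32.5 CPM in empty-vector libraries. These did not overlap, and the log2 fold change was 0.22 ± 0.11 (SE; adjusted p = 0.781, edgeR). Rps3, Rps14, Rps25, Rpl23, Rpl26 and Rpl38 overlapped between the groups.

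Levels per length, in the FPKM that the authors deposited, ran between means of 1.98 and 2591.5 FPKM among the 77 members of the subunits and stalk, with a median of 334 FPKM. Rplp1 was the highest, with 3193, 2812 and 2625 FPKM in libraries labelled Vdbp and 2400.1, 1927 and 2592 FPKM in empty-vector libraries. Rplp0, Rps3a1, Rpl19 and Rpl8 followed, with means over the 6 libraries of 1949, 1457, 1114 and 1083 FPKM. At the low end, Rps10, a 40S protein, had 2.24, 2.22 and 1.95 FPKM in libraries labelled Vdbp and 1.65, 1.26 and 2.55 FPKM in empty-vector libraries. Its log2 fold change was 0.23 ± 0.24 (SE), and 0.042 ± 0.099 (SE) when summed with its named copies, which held most of the family's counts. Rpl24, a 60S protein at the subunit interface, had 1.68, 2.14 and 2.66 FPKM in libraries labelled Vdbp and 2.38, 1.39 and 1.77 FPKM in empty-vector libraries. Rpl36al, the paralog of Rpl36a, had 1.32, 1.5 and 1.22 FPKM in libraries labelled Vdbp and 0.59, 1.41 and 1.04 FPKM in empty-vector libraries. These 3 genes and Rpl13a were the only members with exons that another gene on the same strand also holds in GENCODE M21, over 53.6%, 71.5%, 63.1% and 59.3% of their exon length for Rps10, Rpl24, Rpl36al and Rpl13a. The genes that share those exons had 4 counts (RPS10-NUDT3), 0 counts (Gm28037), 0 counts (Gm49383) and 0 counts (Gm45713) over all 6 libraries. The lowest mean among the other 74 subunit and stalk members was 19.2 FPKM, for Rpl21. Whether reads on shared exons were left out of the authors' counts was not tested, and the levels of these 4 genes are uncertain.

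**Figure D3:**
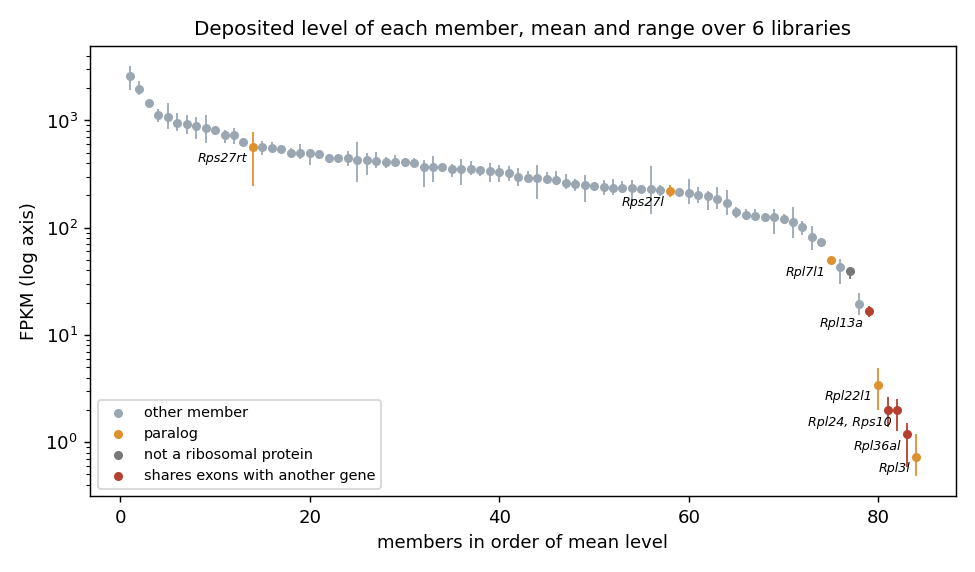
Deposited FPKM of the 84 members with a count in every library, in order of their mean (points) with the range over 6 libraries (lines), on a log axis. The 4 members that share exons with another gene (red) lie among the lowest, beside the paralogs Rpl22l1 and Rpl3l.

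Most members shared stretches of sequence with another gene. In 82 of 86 members at least 1 window of 50 bases of the principal messenger RNA occurred in a transcript of another gene, and over 50% of the windows did so in 46 members (median over members, 52.2%). Copies named after a member, not all of them annotated as pseudogenes (Rps12-ps3 is listed as protein-coding), numbered 296 rows for 60 parent genes. Counts were held by 170 of these rows. Together they held 0.207% ± 0.00381 of all counts in libraries labelled Vdbp and 0.187% ± 0.0157 in empty-vector libraries (SD, n = 3 each). For 9 members the named copies held at least 10% of the family's counts, and for Rps10 (98.0%), Rpl17 (68.6%) and Rpl21 (54.2%) they held more than the gene itself.

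For Rps27 and Rpl17 the rows of the gene and of a copy each varied between libraries of 1 group more, relative to their mean, than their sum did. Rps27 had 8893, 5209 and 6310 counts in libraries labelled Vdbp and 10699, 8580 and 4682 counts in empty-vector libraries. Rps27rt, with the same reading frame, had 1479, 4905 and 4587 counts in libraries labelled Vdbp and 1700, 4013 and 4274 counts in empty-vector libraries. Replicate 1 of each group was the lowest in Rps27rt and the highest in Rps27. Their sum was 10372, 10114 and 10897 counts in libraries labelled Vdbp and 12399, 12593 and 8956 counts in empty-vector libraries. In libraries labelled Vdbp the coefficient of variation was 3.81% for the sum, 27.8% for Rps27 and 51.8% for Rps27rt. In empty-vector libraries it was 18.1% for the sum, 38.2% for Rps27 and 42.6% for Rps27rt. Other pairs did not all follow this pattern. For Rps12 the coefficient was 3.43% in libraries labelled Vdbp and 26.1% in empty-vector libraries, against 6.69% and 14.3% with Rps12-ps3 added. For Rpl21 it was 7.70% and 14.9%, against 13.6% and 8.98% with Rpl21-ps15 added. Alone, Rps27 had a log2 fold change of −0.20 ± 0.26 and Rps27rt one of 0.18 ± 0.38, and their sum one of −0.076 ± 0.13 (SE). Rps27l, which differs enough to be told apart, had 176, 184 and 173 CPM in libraries labelled Vdbp and 203, 194 and 160.1 CPM in empty-vector libraries, with a log2 fold change of −0.066 ± 0.10 (SE).

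Rpl17, a 60S protein, had 2748, 3966 and 2646 counts in libraries labelled Vdbp and 3414, 4003 and 2307 counts in empty-vector libraries. Its processed pseudogene Rpl17-ps10 had 4189, 3329 and 4902 counts in libraries labelled Vdbp and 3712, 3308 and 4911 counts in empty-vector libraries. Each row varied, while the sum of both was 6937, 7295 and 7548 in libraries labelled Vdbp and 7126, 7311 and 7218 in empty-vector libraries. For Rpl6, a 60S protein, the pseudogene Gm6136 had 2906, 2932 and 3253 counts in libraries labelled Vdbp and 6425, 5842 and 2754 counts in empty-vector libraries, where replicate 3 stood with the other group. With the pseudogene rows that share its sequence, the log2 fold change of Rpl6 was −0.035, against 0.13 for the gene alone. Rps27a, a 40S protein made as a fusion with ubiquitin, had 4321, 6711 and 9796 counts in libraries labelled Vdbp and 12141, 4760 and 6629 counts in empty-vector libraries. Empty-vector replicate 1 was the highest and Vdbp replicate 1 the lowest of the 6. With named copies added to their parents and Rps27rt to Rps27, edgeR called 0 of 83 members, 53 of them were above 0 and the median log2 fold change was 0.075. These pairs of rows were picked after their values were seen.

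**Figure D4:**
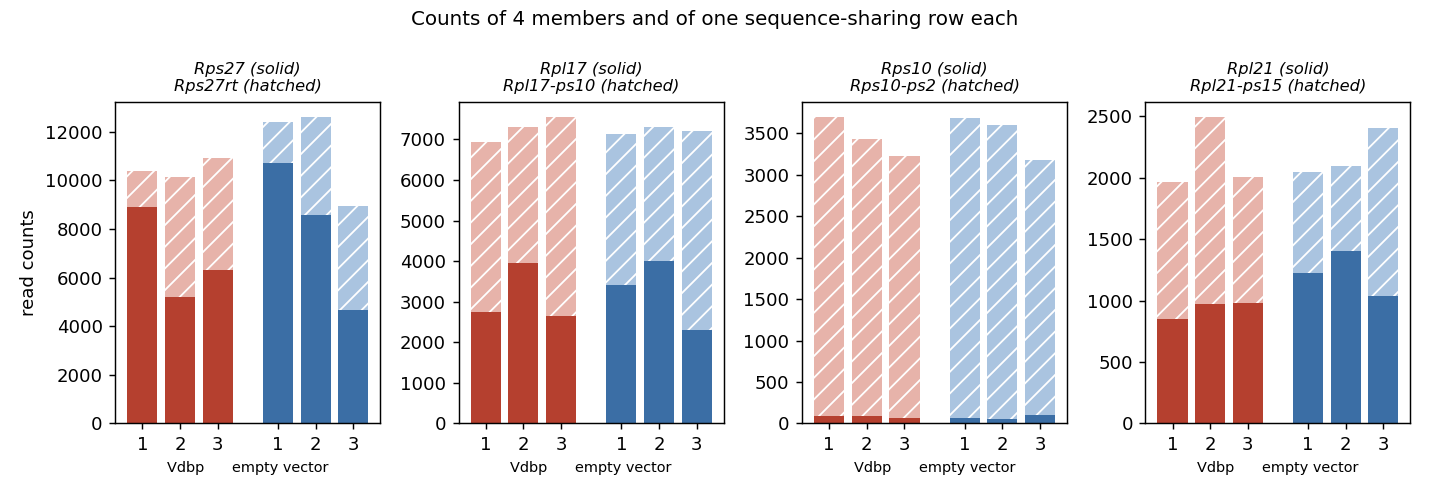
Read counts of Rps27, Rpl17, Rps10 and Rpl21 (solid) and of 1 row each that shares their sequence (hatched), stacked for replicates 1 to 3 of Vdbp (left) and empty vector (right). The solid part varies between replicates of 1 group while the stacked height for Rpl17 stays between 6937 and 7548 counts, and Rps10-ps2 holds nearly all counts of its pair.

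The fold changes of the members followed the GC content of their messenger RNA. Over 84 tested members, Spearman's rho between fold change and the GC content of the principal messenger RNA was 0.34. Over 12834 tested genes, with the GC content of the longest transcript, it was 0.51. Both describe genes that share the same 6 libraries. Of the 42 members at or above the median GC content of 51.7%, 31 had a fold change above 0 and the median was 0.18. Of the 42 members below it, 22 were above 0 and the median was 0.0083. A smooth trend was then fitted on the deposited gene length and the GC content of each gene's longest transcript, not of its principal messenger RNA. After this trend was removed from every library, rho over members was 0.067. The median log2 fold change of all members was 0.0497, with 57 of 84 above 0. The fall of rho follows from the fit itself, which takes out trends with GC content, also one that differed between the groups. The medians were then 0.084 in the GC-rich members and 0.026 in the others, and edgeR still called 0 of 84 members. At an unadjusted p under 0.05, edgeR in that fit found 16 members higher and 4 lower, and 571 of 12844 genes in each direction. Rpl7a had a log2 fold change of 0.49, Rpl10a one of 0.24 and Rplp1 one of 0.18 in that fit, against 0.53, 0.25 and 0.32 without it.

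**Figure D5:**
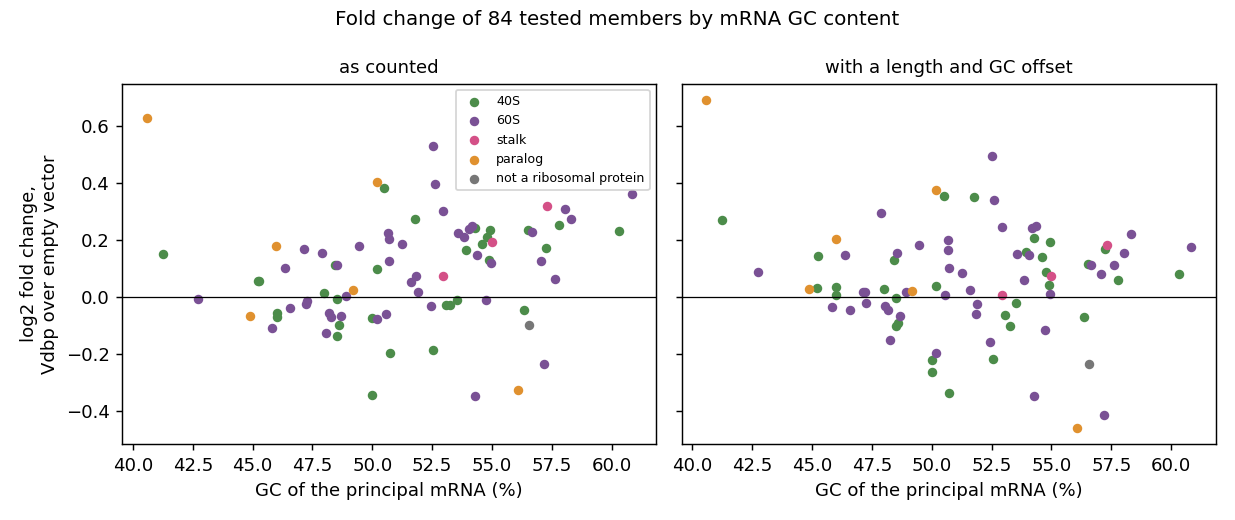
Log2 fold change (Vdbp over empty vector) of the 84 tested members against the GC content of their principal messenger RNA, as counted (left) and with a length and GC offset (right), coloured by class. Spearman's rho is 0.34 on the left and 0.067 on the right. There the offset takes out trends with the GC content of the longest transcript by design.

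Genes that work with ribosomal proteins gave 0 calls in edgeR in every list. Of 84 ribosome biogenesis factors, 45 were above 0, with a median log2 fold change of 0.022, and 8 did not overlap between the groups (the share for all tested genes was 10.9%). Their highest member Ncl, nucleolin, stood at −0.084 ± 0.11 on the log2 scale (SE), while Imp3, a small-subunit processome protein, had 118, 103 and 103 CPM in libraries labelled Vdbp and 83.8, 72.5 and 95.2 CPM in empty-vector libraries, without overlap (adjusted p = 0.781, edgeR). Of 15 tested RNA polymerase I and ribosomal DNA genes, 8 were above 0 (median 0.0040), and of 77 mitochondrial ribosomal proteins 50 were (64.9%; median 0.063), against 48.7% of all tested genes. Among 24 other genes whose messenger RNAs begin with a terminal pyrimidine tract, 14 were above 0 (median 0.055). Eef1a1, the elongation factor and the highest of these, had a log2 fold change of −0.053 ± 0.096 (SE). Of 4 genes of ubiquitin fusions and Rack1, 3 were above 0 (median 0.22, above that of the members), with Fau, whose fusion yields Rps30, at 0.27 ± 0.12 (SE), and Rps27a is also a member. Of 33 mTOR pathway and tract regulators 18 were above 0 (median 0.017). In 4 of the 33 the groups did not overlap, which was so for 10.9% of all tested genes. Pdcd4, an inhibitor of initiation that S6 kinase marks for decay, had 2.05, 1.67 and 1.98 CPM in libraries labelled Vdbp and 2.4, 2.84 and 2.9 CPM in empty-vector libraries, without overlap (log2 fold change −0.51 ± 0.23, SE; adjusted p = 0.781, edgeR). Of 16 chaperones and import receptors of ribosomal proteins 5 were above 0 (median −0.071), of 12 transcription factors of their genes 2 were (median −0.077), and of 19 ribosome surveillance genes 10 were (median 0.0032).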

How the data were processed

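Messenger RNA libraries of 6 samples were analysed. The submitters' processing notes name the tools HISAT2 and StringTie with no version. How reads were counted, what was done with reads that match several places, and the build were not given in the sources used here. As deposited by the authors, 1 table holds raw read counts per Ensembl gene and another the FPKM of the same genes. Each deposited FPKM value equalled the count divided by gene length and by 1 constant per library (largest relative gap 1.3e-13), so counts were used for the tests. The deposited table gives gene positions; 98.3% of its identifiers had the same span in GENCODE M21 (GRCm38), which supplied transcripts, GC contents and exons.

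Members and lists were chosen with earlier results of these data known. Genes were kept by filterByExpr (minimum count 10, minimum total 15, proportion 0.7), scaled by TMM and compared with the quasi-likelihood test of edgeR 4.0.16 in R 4.3.3 over 12844 genes, two-sided, with group as the only term and Benjamini-Hochberg adjustment at 0.05. CPM are counts over the TMM-adjusted library size. Intervals are 95% and floors of 3 counts cover counting error only. The procedure was tested on simulated data. Other settings were DESeq2 1.42.0, scaling by RLE, by the upper quartile or by total counts, limma-voom, limma 3.58.1 on log2 FPKM, 2 other filters, an adjusted p under 0.01, the replicate number as a block, a length and GC offset (mgcv 1.9.3) and leaving out libraries. The addition of copies to their parents, by name or also as pseudogene rows with at least 20% of a member's 50-base windows, was chosen after seeing the data.

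Named were the stalk proteins and Rpsa, paralog pairs, 12 members with roles outside the ribosome, members past the threshold, the 5 smallest p in each direction, the 5 highest and 5 lowest by FPKM, those at 0 and, from each other list, the highest gene and up to 3 with the smallest p. Rps18, Rpl17, Rpl28, Rpl6, Rps27a and the other members without overlap were chosen after their values were seen. Results for some members are not reported here. Start windows come from RefSeq. The principal messenger RNA is the APPRIS principal transcript of GENCODE. GC content over all genes and in the offset is that of the longest transcript of each gene.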

Additional observations from a re-analysis of the deposited data

How the results depend on the processing

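Under 22 alternatives the number of members above 0 lay between 45 and 63. No member was called except Rpl7a and Rpl28 without a filter on low counts (2 of 85 members). Where 0 genes were called in the first place, DESeq2 called 11 of 12844 and no filter 89 of 24135. Limma on log2(FPKM + 1) called 4 of 24135, and the length and GC offset 2 of 12844. The fit without empty-vector replicate 2 and Vdbp replicate 1 also called 2. Leaving out 1 library gave 0 to 22, the most without empty-vector replicate 3. The median log2 fold change of members was 0.026 without empty-vector replicate 2 and Vdbp replicate 1, and 0.055 to 0.12 when 1 library was left out. Over the same alternatives 49 of the 84 tested members changed sign at least once and 35 did not, and the cause was not tested. Values for 11 of the 49 follow, and none of these was called. Leaving out 1 library or that pair gave −0.11 to 0.044 for Rpl22, −0.59 to 0.067 for Rpl3l, −0.085 to 0.11 for Rpl5, −0.065 to 0.17 for Rplp0, −0.067 to 0.37 for Rplp2, −0.012 to 0.55 for Rps10, −0.48 to 0.089 for Rps27, −0.16 to 0.0043 for Rps27l, −0.13 to 0.71 for Rps27rt and −0.16 to 0.034 for Rpsa. Rpl21 was at 0.011 with named copies and 0.086 with all sequence-sharing pseudogene rows. Rpl5 was at 0.0028 under upper-quartile scaling and 0.087 with the length and GC offset, and Rps27l at 0.026 with that offset. Whether the replicate numbers pair the samples could not be decided from 3 libraries a group. Deviations of same-numbered libraries correlated at 0.14, 0.034 and −0.27, and those of libraries with unlike numbers at −0.34 to 0.35. With the replicate block, edgeR called 0 genes and 0 members, 53 members were above 0 and their median was 0.097. The share of counts was 0.296 percentage points higher in libraries labelled Vdbp, and 0.196 to 0.422 when 1 library was left out, the least without empty-vector replicate 2. Precision is limited by 3 libraries a group. The outer bound of the 95% interval of the log2 fold change had a median size of 0.41 over members.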
